A study of Mus musculus with 6 samples.

Results

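The Foxo and PI3K-Akt-Tsc genes described here are the 9 mouse genes Foxo1, Foxo3, Foxo4, Irs1, Irs2, Pik3r1, Akt1, Tsc1 and Tsc2, taken by symbol from the 41214 genes of the deposited table. Their RNA was measured in endothelial cells of embryonic mouse hearts with 2, 1 or 0 floxed copies of Dll4, the gene of a Notch ligand. All 3 groups carried Pdgfb-iCreERT2-IRES-EGFP, a transgene in which Pdgfb sequences express, in endothelium, a Cre recombinase activated by tamoxifen together with green fluorescent protein (GFP), so that GFP marks the transgene and not the deletion. All received tamoxifen at E13.5, and hearts were taken at E14.5 (E, embryonic day). KO embryos (Dll4-/-) had 2 floxed Dll4 alleles, het embryos (Dll4+/-) had 1 floxed and 1 intact allele, and wt embryos had no floxed allele. Cells positive for CD31 and GFP were sorted, and 2 libraries were made per group, from hearts of several litters. The labels do not give the number of hearts behind a library, so p-values measure the spread between libraries, which may be partly technical.

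In this pathway, receptors for insulin and insulin-like growth factors act through the adaptor proteins Irs1 and Irs2 on phosphoinositide 3-kinase, whose regulatory subunit is encoded by Pik3r1. The lipid product recruits the kinase Akt1. Akt phosphorylates the Foxo transcription factors, which then leave the nucleus, and it inhibits the complex of Tsc1 and Tsc2, which otherwise restrains the growth kinase complex mTORC1. In endothelium Foxo1 is known to favour quiescence and to oppose Myc. These steps act largely on proteins and lipids, and the RNA levels below do not report them.

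Library totals lay between 1537894 and 6501789 counts, with both KO libraries above the other 4. Dll4 itself stood at 19.4 and 13.7 CPM (counts per 1000000 of the scaled library) in the KO libraries, 81.2 and 85.9 CPM in the het libraries and 196 and 183 CPM in the wt libraries, in the order of the labelled genotypes. The summed level of 8 endothelial markers was 4457 to 4682 CPM in KO, 5185 to 5450 CPM in het and 5430 to 5718 CPM in wt, and its members moved apart, with 2 called higher and 3 lower in KO against wt. Cdh5, the gene of VE-cadherin, averaged 401 CPM in KO and 1955 CPM in wt, while Kdr, the gene of VEGF receptor 2, averaged 1596 CPM in KO and 1178 CPM in wt. For 8 cardiomyocyte markers the sum was 44.8 to 48.7 CPM in KO, 148 to 200.1 CPM in het and 91.1 to 106 CPM in wt, and for 9 mural, fibroblast and epicardial markers it was 106 to 141 CPM, 233 to 274 CPM and 140.4 to 153 CPM in the same order. For 6 blood markers it was 72.4 to 92.3 CPM in KO, 125 to 154 CPM in het and 82.9 to 162 CPM in wt. No marker was at 0 in every library. The KO libraries also differed in makeup: Lars2, a gene that contains sequence like ribosomal RNA, took 0.0572% and 0.0611% of their counts, against 16.4% to 17.1% in het and 16.3% to 16.7% in wt. No preparation date is given by the labels, and a difference in how the KO libraries were prepared cannot be told apart from the genotype.

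Of the 9 genes, 6 could be tested, and 1 of the 6 was called in each comparison with KO. Foxo1 was lower in KO than in wt by 1.30-fold, and Akt1 was higher in KO than in het by 1.23-fold. Calls were made at an adjusted p under 0.05 in edgeR's quasi-likelihood test, with adjustment by Benjamini and Hochberg over 10952 genes that passed a filter on low counts, and 6 of the 9 passed that filter. In KO against wt, 1 of the 6 fell (Foxo1) and none rose (with scaling by library size only 3 were higher, Tsc1, Tsc2 and Akt1, and 0 lower), where 32.0% of all genes were called (1610 higher and 1899 lower, or 3878 and 1034 with library size only, which puts the all-gene median at 0.35 on the log2 scale, against -0.02 as reported). None of the 6 was called in het against wt, where 0.173% of all genes were (0.128% higher and 0.0457% lower). DESeq2 and limma-voom also called 0 of the 6 there. In edgeR 1 of the 6, Tsc1, had an unadjusted p under 0.05, as did 893 of the 10952 genes tested. In KO against het, 1 of the 6 rose (Akt1) and none fell (3 and 0 with library size only), where 31.2% of all genes were called (1524 higher and 1888 lower, or 3930 and 1016 with library size only). The median log2 fold change of the 6 was 0.09 for KO over wt, -0.10 for het over wt and 0.02 for KO over het, beside -0.02, 0.01 and -0.02 over all genes tested. Foxo4, Irs1 and Irs2 were below the filter and are given as counts.

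**Figure D1:**
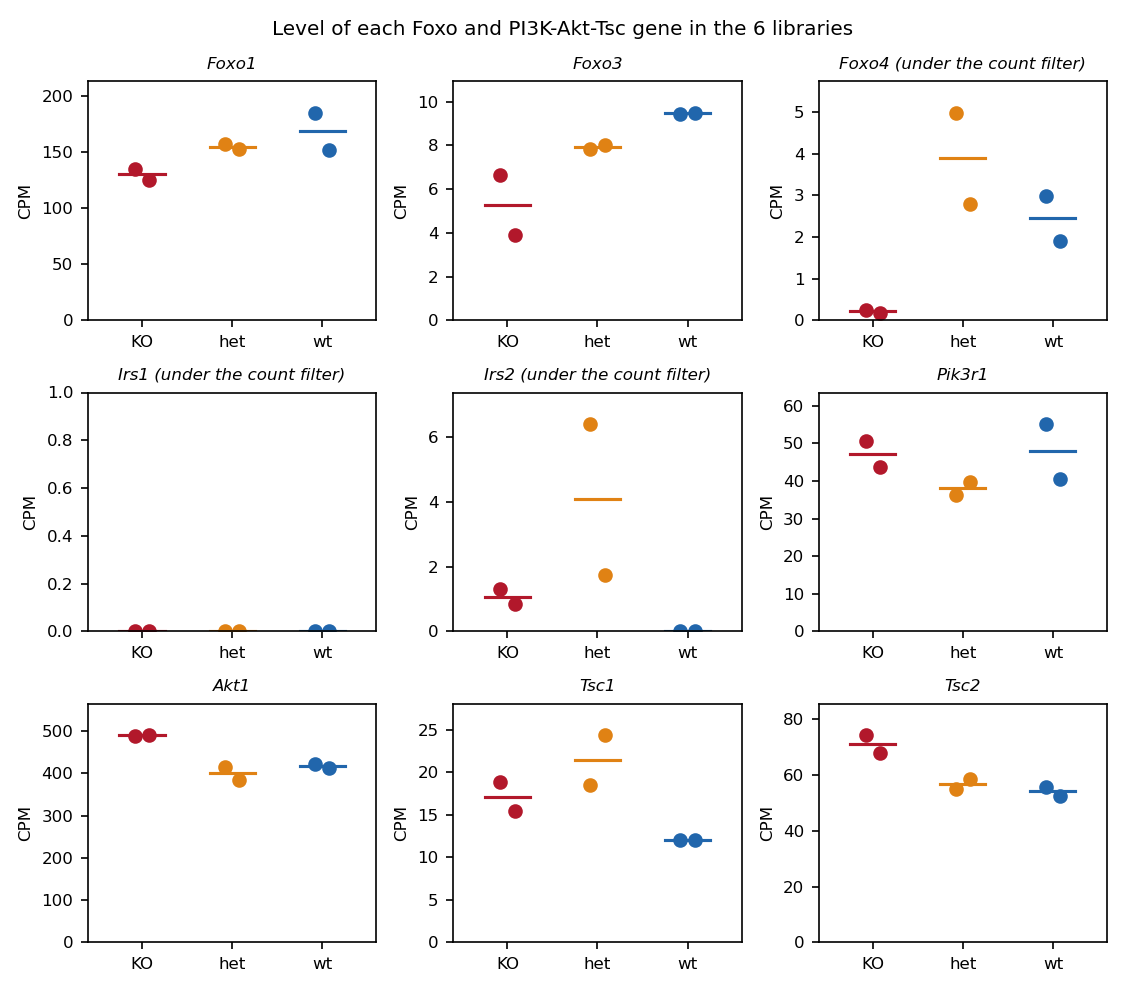
Level of each of the 9 genes in CPM (linear axes from 0, scaled per gene), with a point for each library and a line at the mean of the 2 libraries of KO, het and wt. The 2 KO libraries lie lowest for Foxo1, Foxo3 and Foxo4 and highest for Akt1 and Tsc2, and Irs1 is at 0 in all 6.

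The upstream promoter sequence is shown for Foxo1 and Akt1, the members that passed a test, and for Irs2, which had no count in wt. Each is the 250 bases before the RefSeq start (GRCm38.p6), written 5′ to 3′ along the gene's strand. The motifs searched, on both strands, were GTAAACA, the core bound by FoxO and other forkhead factors, TGGGAA, the core of the site of the Notch effector Rbpj, and the E-box CACGTG, which Myc and many other factors bind. Matches are in capitals. The windows lie at chr3:52268087-52268336 on the plus strand for Foxo1, at chr12:112674885-112675134 on the minus strand for Akt1 and at chr8:11008930-11009179 on the minus strand for Irs2.
Foxo1: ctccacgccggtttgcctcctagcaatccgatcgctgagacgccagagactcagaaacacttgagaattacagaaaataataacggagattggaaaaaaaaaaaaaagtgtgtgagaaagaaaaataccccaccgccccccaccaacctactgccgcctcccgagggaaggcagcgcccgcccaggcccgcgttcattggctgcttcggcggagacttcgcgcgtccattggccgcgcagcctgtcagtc
Akt1: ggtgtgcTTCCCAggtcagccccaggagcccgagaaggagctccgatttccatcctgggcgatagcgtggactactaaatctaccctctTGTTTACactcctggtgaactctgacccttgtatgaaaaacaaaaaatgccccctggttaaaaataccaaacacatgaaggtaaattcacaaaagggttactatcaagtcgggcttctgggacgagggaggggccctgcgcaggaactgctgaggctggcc
Irs2: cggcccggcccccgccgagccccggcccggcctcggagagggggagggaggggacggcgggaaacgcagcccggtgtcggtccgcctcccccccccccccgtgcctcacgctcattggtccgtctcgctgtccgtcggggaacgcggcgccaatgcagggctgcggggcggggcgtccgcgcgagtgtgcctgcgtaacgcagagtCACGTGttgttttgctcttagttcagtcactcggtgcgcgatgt
The Akt1 window shown, the first of 2 in the table, holds the forkhead core 161 bases and the Rbpj core 243 bases before the start, both on the other strand and not overlapping. The window before the second Akt1 start, at chr12:112674277-112674526, holds none of the 3 motifs. The Irs2 window holds an E-box 44 bases before the RefSeq start, which lies upstream of the gene end in the annotation used for the gene positions below. None of the 3 motifs is in the Foxo1 window. Of 32851 windows of this length in the RefSeq table, 3.17% hold the forkhead core, 21.6% the Rbpj core and 6.02% the E-box. Windows were found for 8 of the 9 members. Beyond those shown, Irs1 has an E-box 115 bases and Tsc2 an Rbpj core 50 bases before the start. These matches describe letters and do not show binding.

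Foxo1 (ENSMUSG00000044167, chromosome 3 from 52268336 to 52353221, plus strand, GRCm38) had the highest level of the Foxo members in every library. It stood at 135 and 125 CPM in the KO libraries, 157 and 153 CPM in the het libraries and 185 and 152 CPM in the wt libraries, from 220 to 1040 counts. Both KO libraries lay below the other 4, while the het libraries lay close to the lower wt library. Foxo1 fell 1.30-fold in KO against wt, with a mean of 130.0 ± 7.22 CPM in KO and 168 ± 23.4 CPM in wt (SD, n = 2 each), a log2 fold change of -0.38 ± 0.12 (SE) and edgeR adjusted p = 0.0209. Between het and wt the log2 fold change was -0.13 ± 0.13 (edgeR adjusted p = 0.839, 95% interval -0.40 to 0.14), and in KO against het it was -0.25 ± 0.12 (edgeR adjusted p = 0.131). The KO call rested on single libraries. It ended without wt replicate 4 (-0.18 on the log2 scale, adjusted p = 0.457), without KO replicate 1 (-0.43, adjusted p = 0.0511) and without KO replicate 2 (-0.32, adjusted p = 0.160). It also ended with DESeq2 (adjusted p = 0.0890) and with scaling by library size only (-0.02, adjusted p = 0.921), so the fall is relative to the bulk of genes. Over all alternatives the adjusted p ranged from 0.0117 to 0.921. In sorted bulk samples, fewer cells of a type that makes a transcript and less of it per cell cannot be told apart.

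Foxo3 (ENSMUSG00000048756, chromosome 10 from 42181841 to 42276755, minus strand), a second Foxo factor with the same Akt control, stood at 6.62 and 3.90 CPM in KO, 7.83 and 8.03 CPM in het and 9.42 and 9.49 CPM in wt. The 3 groups did not overlap, with KO lowest and wt highest, but counts were only 11 to 51 per library. The log2 fold change was -0.83 ± 0.44 in KO against wt (edgeR adjusted p = 0.166, 95% interval -1.75 to 0.10), an interval that holds both no difference and a large fall. For het over wt it was -0.25 ± 0.48 (edgeR adjusted p = 0.927), and for KO over het it was -0.58 ± 0.45 (edgeR adjusted p = 0.364).

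Foxo4 (ENSMUSG00000042903, chromosome X from 101254528 to 101260873, plus strand), a further member of the family, had 2 and 1 counts in the KO libraries, 7 and 8 in the het libraries and 7 and 3 in the wt libraries. These are 0.260 and 0.170 CPM in KO, 4.99 and 2.79 CPM in het and 2.997 and 1.90 CPM in wt. The KO libraries were the deepest and had the fewest counts. Summed over libraries, the ratio of KO to wt was 0.0864, with an exact 95% counting interval of 0.0153 to 0.336, and that of KO to het was 0.0628 (0.0117 to 0.222). The ratio of het to wt was 1.38 (0.578 to 3.42). These intervals cover counting error only and not the spread between embryos. With no filter on low counts, edgeR gave Foxo4 a log2 fold change of -3.27 in KO against wt (adjusted p = 0.0396) and -3.85 in KO against het (adjusted p = 0.00869). In the other alternatives Foxo4 was tested only through het, where it is high. It was not tested without het replicate 2, the 1 library in which it reached the count filter. Over the alternatives in which Foxo4 was tested, adjusted p ranged from 0.0396 to 0.284 for KO against wt and from 0.00869 to 0.0752 for KO against het. It was above the threshold in both comparisons without KO replicate 1 or KO replicate 2, and in KO against wt also without wt replicate 4 or wt replicate 5. Xist, transcribed from the inactive X chromosome, had its group means in the same order as Foxo4, with libraries at 30.1 and 22.2 CPM in KO, 279 and 229 CPM in het and 62.5 and 110.1 CPM in wt, and the part of the mix of sexes in the Foxo4 counts was not tested.

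Levels of different genes were compared per kilobase of annotated exon. Foxo1 made up 94.3% and 96.2% of the summed level per kilobase of the 3 Foxo genes in the KO libraries, 88.0% and 90.5% in the het libraries and 91.0% and 90.7% in the wt libraries. Foxo4 made up 0.451% and 0.325% in KO, 6.96% and 4.11% in het and 3.67% and 2.82% in wt, and Foxo3 between 3.44% and 6.49% in any library. Foxo1 was thus most of the summed level of these 3 genes in each genotype. Its shares were highest in the KO libraries although its own level was lowest there, and Foxo4 had only 2 and 1 counts in them.

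Of the adaptor genes, Irs1 (ENSMUSG00000055980, chromosome 1 from 82233101 to 82291416, minus strand), the insulin receptor substrate prominent in muscle and fat, had 0 counts in all 6 libraries. A count of 0 allows up to 3 counts, that is 0.221 CPM over the KO libraries together, 0.703 CPM over the het libraries and 0.766 CPM over the wt libraries. Irs1 shares 2822 exonic bases with Gm9747 on the opposite strand, which had 7 counts over the 6 libraries, and without strand these cannot be told apart from Irs1 reads. Irs2 (ENSMUSG00000038894, chromosome 8 from 10984681 to 11008458, minus strand), the substrate prominent in liver and a known FoxO target there, had 10 and 5 counts in KO, 9 and 5 in het and 0 and 0 in wt. Its levels were 1.30 and 0.848 CPM in KO and 6.41 and 1.74 CPM in het, and het replicate 2 stood highest. The summed KO level of 1.103 CPM had a 95% counting interval of 0.618 to 1.82 CPM, which holds the 0.766 CPM that 0 counts allow in wt. The summed het level of 3.28 CPM (1.79 to 5.50 CPM) lay above that limit, at 4.28 times it. Single libraries lay at 8.37 and 2.28 times it in het and at 1.70 and 1.11 times it in KO. These rest on 5 to 10 counts each, without a counting interval for a single library. The summed ratio of KO to het was 0.336 (95% counting interval 0.151 to 0.752). With no filter on low counts, edgeR did not call Irs2 in KO against wt (adjusted p = 0.132, 0.132 to 0.406 over the alternatives that tested it), in het against wt (0.131, 0.131 to 0.925) or in KO against het (0.282, 0.123 to 0.469). Irs2 reached the count filter only in het replicate 2, and it was not tested without that library. The cardiomyocyte and the mural, fibroblast and epicardial marker sums were also highest in het. Of the blood markers, Lyz2, C1qa and Adgre1 were higher in het replicate 2 than in het replicate 3, and Ptprc, Hbb-bt and Hba-a1 were lower. The part of other cell types in the Irs2 counts was not tested.

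Pik3r1 (ENSMUSG00000041417, chromosome 13 from 101680563 to 101768217, minus strand), the gene of the p85α regulatory subunit and its shorter forms, stood at 50.7 and 43.6 CPM in KO, 36.3 and 39.8 CPM in het and 55.2 and 40.5 CPM in wt. The KO and wt libraries overlapped, and the het libraries lay lowest. The log2 fold change was -0.04 ± 0.19 in KO against wt (edgeR adjusted p = 0.898, 95% interval -0.43 to 0.35). It was -0.34 ± 0.21 for het over wt (edgeR adjusted p = 0.708) and 0.30 ± 0.19 for KO over het (edgeR adjusted p = 0.254).

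Akt1 (ENSMUSG00000001729, chromosome 12 from 112653821 to 112674884, minus strand), the most abundant of the 9 genes, stood at 489 and 492 CPM in KO, 416 and 384 CPM in het and 423 and 414 CPM in wt. Both KO libraries lay above the other 4, and het and wt overlapped. Akt1 rose 1.23-fold in KO against het, with means of 490.5 ± 1.59 CPM in KO and 399.9 ± 22.7 CPM in het (SD, n = 2 each), a log2 fold change of 0.30 ± 0.09 and edgeR adjusted p = 0.0192. In KO against wt the log2 fold change was 0.23 ± 0.09 (edgeR adjusted p = 0.0663, 95% interval 0.03 to 0.42 before adjustment), and in het against wt it was -0.07 ± 0.10 (edgeR adjusted p = 0.893). The call against het ended without KO replicate 1 (adjusted p = 0.0867), without KO replicate 2 (adjusted p = 0.0938), without het replicate 3 (adjusted p = 0.123) and with counts thinned to the smallest total (adjusted p = 0.113), within a range of 1.07e-05 to 0.123 over all alternatives. The comparison with wt passed in 5 of 14 alternatives, over which its adjusted p ranged from 4.50e-05 to 0.327.

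Tsc1 (ENSMUSG00000026812, chromosome 2 from 28641228 to 28691167, plus strand), the gene of hamartin, which stabilises Tsc2, stood at 18.8 and 15.4 CPM in KO, 18.5 and 24.4 CPM in het and 12.0 and 12.0 CPM in wt. All 4 Dll4-deficient libraries lay above both wt libraries. For het over wt the log2 fold change was 0.87 ± 0.31 (unadjusted p = 0.0106, edgeR adjusted p = 0.384), and in KO against wt it was 0.52 ± 0.29 (edgeR adjusted p = 0.188). Neither passed. In KO against het it was -0.35 ± 0.26 (edgeR adjusted p = 0.344), and the groups overlapped.

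Tsc2 (ENSMUSG00000002496, chromosome 17 from 24595816 to 24632630, minus strand), the gene of tuberin, which inactivates the GTPase Rheb, stood at 74.4 and 67.7 CPM in KO, 54.8 and 58.6 CPM in het and 55.7 and 52.5 CPM in wt. Both KO libraries lay above the other 4. The log2 fold change was 0.39 ± 0.16 in KO against wt (edgeR adjusted p = 0.0627) and 0.32 ± 0.16 in KO against het (edgeR adjusted p = 0.128), and it was 0.07 ± 0.17 in het against wt (edgeR adjusted p = 0.945). Tsc2 shares 693 exonic bases with Pkd1 on the opposite strand, the library kit does not mark strand, and its expected counts were not whole in any of the 6 libraries, so reads of the 2 genes may be mixed.

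Counts of libraries that stood apart show how common such patterns were. In KO against wt, both KO libraries lay above both wt libraries for 3 of the 6 tested members (Tsc1, Tsc2 and Akt1) and below for 2 (Foxo1 and Foxo3), where 33.2% of all genes tested lay above and 34.5% below. Between het and wt 1 of 6 lay above (Tsc1) and 2 below (Foxo3 and Pik3r1), where 19.2% and 18.8% of all genes did. In KO against het 3 of 6 lay above and 2 below, where 31.4% and 33.0% of all genes did. KO against wt and KO against het share the KO libraries.

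**Figure D2:**
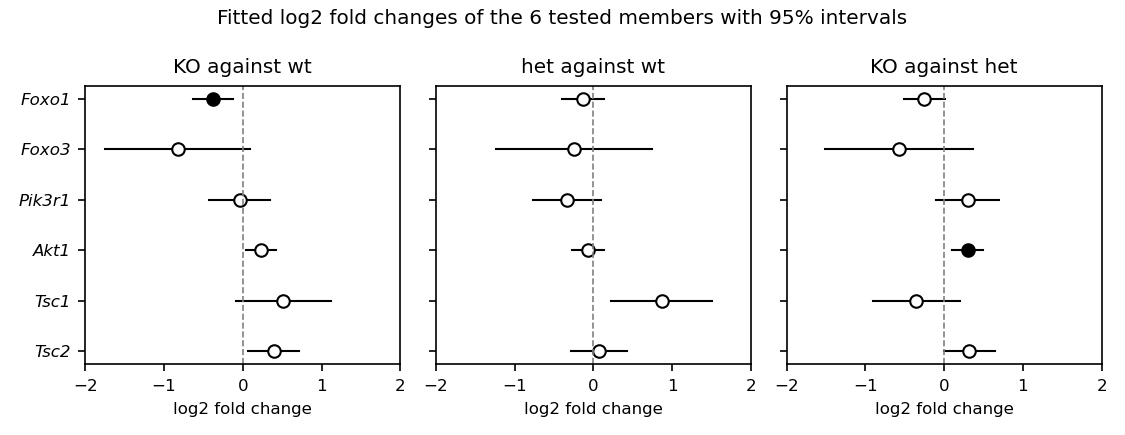
Log2 fold change of the 6 members that passed the count filter for KO over wt, het over wt and KO over het, with 95% intervals from edgeR before adjustment. Filled points had an adjusted p under 0.05: Foxo1 in KO against wt (-0.38) and Akt1 in KO against het (0.30), and the intervals of Foxo3 are the widest.

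By mean level per kilobase, Akt1, Foxo1, Tsc2 and Pik3r1 kept the same order in each genotype, and the order of the lower genes differed. Akt1 was first, at 119.7 ± 0.388 CPM per kilobase in KO, 97.6 ± 5.53 in het and 102 ± 1.57 in wt (SD, n = 2 each). Foxo1 followed at 15.0 ± 0.834, 17.9 ± 0.312 and 19.4 ± 2.70 CPM per kilobase in the same order of genotypes, and then Tsc2 at 7.39 ± 0.495, 5.90 ± 0.279 and 5.62 ± 0.230. Pik3r1 came next at 4.68 ± 0.495 in KO, 3.78 ± 0.243 in het and 4.75 ± 1.03 in wt, where its libraries overlapped those of Tsc2. Tsc1, at 1.45 ± 0.203 CPM per kilobase in KO, 1.81 ± 0.353 in het and 1.01 ± 0.00220 in wt, lay above Foxo3 in KO and het and below it in wt (0.695 ± 0.254 in KO, 1.05 ± 0.0180 in het and 1.25 ± 0.00692 in wt). With the longest transcript as the length in place of all exons, Tsc1 lay above Foxo3 in wt too (1.56 against 1.38), so that order depends on the length used. Foxo4 stood at 0.0616 ± 0.0183 CPM per kilobase in KO, 1.12 ± 0.445 in het and 0.702 ± 0.223 in wt. Irs2 stood at 0.170 ± 0.0504 in KO, 0.645 ± 0.522 in het and 0 in wt, and Irs1 at 0. Foxo4 lay below Irs2 in KO. In het the mean of Foxo4 lay above that of Foxo3, with its libraries on both sides of those of Foxo3.

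The genes with the profile most like that of the 2 called members were found among 5626 tested genes whose log2 CPM averaged 5 or more. The 9 members and genes with predicted-gene or missing symbols were left out of these. Likeness was measured by the root mean square difference in log2 CPM centred on each gene's mean over the 6 libraries. Nearest to Foxo1 were Tjp1, the gene of the junction protein ZO-1, at a difference of 0.0376, and Mfap3, at 0.0388. Nearest to Akt1 were Psmd12, a subunit of the proteasome, at 0.0230, and Becn1, which acts in autophagy, at 0.0335. All share the same 6 libraries, and likeness here is a description.

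The other genes of the pathway, from lists chosen with earlier results of these data known, included larger fold changes than any tested member, in both directions. Among 15 tested genes of receptors and PI3K, 5 rose and 6 fell in KO against wt, with a median log2 fold change of -0.33. Over all genes tested, 14.7% were called higher and 17.3% lower in KO against wt, with a median of -0.02. That background also holds for the lists that follow. Insr, the insulin receptor gene, was at 7.66 and 5.77 CPM in KO against 29.1 and 25.3 CPM in wt, 4.03-fold lower (edgeR adjusted p = 1.71e-05). Igf1r, the receptor of insulin-like growth factor 1, was at 14.4 and 13.9 CPM in KO against 37.2 and 26.6 CPM in wt, 2.28-fold lower (edgeR adjusted p = 7.30e-04). Both KO libraries lay below all 4 others for both receptors, whose het levels were 32.0 and 22.7 CPM for Insr and 38.5 and 29.7 CPM for Igf1r. Pik3c2b, a class II PI3K, fell 2.04-fold (edgeR adjusted p = 5.18e-04) and Pik3cg, the p110γ catalytic subunit, fell 2.32-fold (edgeR adjusted p = 0.00162), whereas Pik3cb, the p110β subunit, rose 1.52-fold (edgeR adjusted p = 0.00453). Igf1r and Pik3cg lost their calls without wt replicate 4 (adjusted p = 0.0787 and 0.0712) and Pik3cb without wt replicate 5 (adjusted p = 0.0552). Without wt replicate 4 the whole list had 3 calls, 1 higher and 2 lower, and without wt replicate 5 or KO replicate 2 it had 6, as with DESeq2. With library size only, 7 were higher and 4 lower.

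Among the regulatory subunits of PI3K, Pik3r2 (p85β) and Pik3r3 (p55γ) were named after their values were seen, for comparison with Pik3r1. Pik3r2 stood at 15.7 and 16.5 CPM in KO, 4.27 and 6.98 CPM in het and 4.28 and 7.59 CPM in wt, and it rose 2.80-fold in KO against wt (edgeR adjusted p = 0.00581, and adjusted p = 0.134 without wt replicate 4) and 2.70-fold in KO against het (edgeR adjusted p = 0.00666). Pik3r3 stood at 35.3 and 21.7 CPM in KO, 42.7 and 36.6 CPM in het and 43.7 and 44.3 CPM in wt. It fell 1.53-fold in KO against wt (edgeR adjusted p = 0.0415), a call that ended without KO replicate 2, wt replicate 4 or wt replicate 5 (adjusted p = 0.360, 0.231 and 0.175). By level per kilobase of exon, Pik3r1 made up 32.5% and 34.99% of the 3 in the KO libraries, 28.4% and 31.5% in the het libraries and 37.2% and 28.3% in the wt libraries. Pik3r2 made up 24.4% and 31.9% in KO, 8.06% and 13.3% in het and 6.95% and 12.8% in wt, and Pik3r3 43.1% and 33.1% in KO, 63.5% and 55.2% in het and 55.9% and 58.9% in wt. The other 3 genes of this list that rose, also named after their values were seen, were Pik3cd, Pik3c3 and the adaptor gene Gab1, with log2 fold changes of 2.40, 0.84 and 0.42. Pik3cd had 28 and 28 counts in KO, 4 and 11 in het and 2 and 1 in wt. It passed the count filter only through the KO libraries, where it is high, so its call, 1 of the 5 that rose, supports nothing further. Each lost its call on leaving out at least 3 of the 4 KO and wt libraries, with adjusted p up to 0.172, 0.151 and 0.300, and with DESeq2. Pik3c2a, a class II PI3K named on the same terms, had a log2 fold change of -0.57 and lost its call without KO replicate 2, wt replicate 4 or wt replicate 5 (adjusted p up to 0.145).

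Of 17 tested genes of Akt and its regulators, 3 rose and 3 fell in KO against wt (6 and 1 with library size only), with a median log2 fold change of -0.08. Sgk1, a kinase related to Akt, was at 443 and 446 CPM in KO, 378 and 318 CPM in het and 253 and 278 CPM in wt, and it rose 1.68-fold in KO against wt (edgeR adjusted p = 1.33e-05). Inpp5d, the lipid phosphatase SHIP1, rose 1.97-fold (edgeR adjusted p = 2.63e-04) and Trib3, a pseudokinase known to bind Akt, rose 2.57-fold (edgeR adjusted p = 9.20e-04). Gsk3b, a kinase that Akt inhibits, fell 1.53-fold (edgeR adjusted p = 0.00268), a call that ended without wt replicate 5 (adjusted p = 0.0660) and with scaling by library size only (adjusted p = 0.175). Phlpp2, the gene of an Akt phosphatase, stood at 1.56 and 1.19 CPM in KO, 4.99 and 6.28 CPM in het and 5.99 and 6.33 CPM in wt, and it fell 4.35-fold in KO against wt (edgeR adjusted p = 0.0131). Phlpp2 passed the count filter only through the het and wt libraries, where it is high, so its call, 1 of the 3 that fell, supports nothing further. Its call ended on leaving out any of the 4 KO and wt libraries (adjusted p up to 0.113). Inpp4a, a lipid phosphatase gene named after its values were seen, had a log2 fold change of -1.41 and lost its call without KO replicate 1, KO replicate 2 or wt replicate 4, the last of which put it at -0.46 (adjusted p = 0.696). Gsk3a, a kinase related to Gsk3b, fell in KO against het (log2 fold change -0.59, edgeR adjusted p = 0.00626), as did the pseudokinase gene Trib1 (-0.58, edgeR adjusted p = 0.0112). Their calls ended with library size only (adjusted p = 0.275 and 0.341) and on leaving out either of 2 libraries each (Gsk3a without KO replicate 2, 0.0795, or het replicate 3, 0.0687, and Trib1 without KO replicate 1, 0.153, or het replicate 2, 0.0511), that of Trib1 also with DESeq2 (0.0575).

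Among 25 tested genes of the Tsc and mTOR branch, 2 rose and 4 fell in KO against wt, with a median of -0.10. Eif4ebp2, a repressor of translation that mTORC1 inactivates, was at 24.8 and 25.4 CPM in KO, 86.2 and 82.7 CPM in het and 92.5 and 81.6 CPM in wt, 3.48-fold lower in KO than in wt (edgeR adjusted p = 2.74e-08). Ddit4, which acts through the Tsc complex to restrain mTORC1, was at 8.31 and 4.75 CPM in KO, 30.6 and 36.6 CPM in het and 46.7 and 38.0 CPM in wt (edgeR adjusted p = 1.95e-07). Rragc, a GTPase that brings mTORC1 to lysosomes, rose 1.75-fold (edgeR adjusted p = 1.48e-04). Mapkap1, a subunit of mTORC2, rose 1.51-fold (edgeR adjusted p = 0.00687, and 0.0572 without wt replicate 5). Lamtor1, the lysosomal anchor of the Rag GTPases, fell 1.58-fold (edgeR adjusted p = 0.00275, 0.185 without wt replicate 4 and 0.136 with library size only). Prr5, another mTORC2 gene and named after its values were seen, had a log2 fold change of -0.57 and lost its call on leaving out any of the 4 KO and wt libraries (adjusted p up to 0.232). Pik3r3, Pik3c2a, Inpp4a and Prr5 also lost their calls with DESeq2 and with library size only. Mtor and Rheb were named on the same terms. The kinase gene Mtor stood at 30.3 ± 2.32 CPM in KO and 33.9 ± 6.71 CPM in wt, and the GTPase gene Rheb at 142 ± 15.6 CPM in KO and 132 ± 1.34 CPM in wt, and neither passed. With scaling by library size only this list had 9 higher and 2 lower. Sesn2, an inhibitor of mTORC1, rose in KO against het (2.42-fold, edgeR adjusted p = 0.00201).

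Among 19 tested genes known to be induced by FoxO factors in other settings, 4 rose and 1 fell in KO against wt, with a median of -0.04. Bnip3, a mitophagy receptor that hypoxia also induces, was at 154 and 162 CPM in KO, 55.6 and 57.6 CPM in het and 62.1 and 47.5 CPM in wt, 2.85-fold higher in KO than in wt (edgeR adjusted p = 1.18e-07). Ccng2, a cyclin that restrains the cell cycle, was at 104 and 98.2 CPM in KO, 57.0 and 53.0 CPM in het and 49.7 and 56.3 CPM in wt, 1.92-fold higher (edgeR adjusted p = 6.65e-05). Pdk4, which inhibits pyruvate dehydrogenase, averaged 11.9 ± 3.17 CPM in KO and 2.13 ± 1.22 CPM in wt (SD, n = 2 each, edgeR adjusted p = 0.00132). It had 109 and 57 counts in KO, 4 and 10 in het and 7 and 2 in wt. Pdk4 passed the count filter only through the KO libraries, where it is high, so its call, 1 of the 4 that rose, supports nothing further. Mxi1, an antagonist of Myc, rose 1.66-fold (edgeR adjusted p = 0.00223, and 0.0579 without wt replicate 4), and Map1lc3b, an autophagosome protein, fell 1.40-fold (edgeR adjusted p = 0.00105, and 0.343 with scaling by library size only). The other 14 were not called. With library size only, 6 were higher and 0 lower. Sesn3 passed the filter only through het and wt, so its fall in KO against het (edgeR adjusted p = 0.0237) supports nothing further. Its levels were 2.47 and 3.22 CPM in KO against 8.55 and 9.07 CPM in het. The call ended without any one of the 4 KO and het libraries, and with DESeq2, thinning and library size only (adjusted p up to 0.172).

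Between het and wt none of the 15, 17, 25 and 19 tested genes of these lists was called by edgeR, DESeq2 or limma-voom, and 2, 1, 3 and 0 had an unadjusted p under 0.05. Their median log2 fold changes were -0.06, 0.07, -0.04 and -0.07. In KO against het, 3 rose and 4 fell among receptors and PI3K, 3 and 5 among Akt and its regulators (2 and 3 without KO replicate 2), 2 and 2 in the Tsc and mTOR branch and 4 and 2 among FoxO-induced genes (3 and 0 without KO replicate 1). With library size only these became 7 and 3, 6 and 3, 8 and 2, and 9 and 0, and with thinning the receptors and PI3K had 1 and 3. The background for these counts was 13.9% of all genes called higher and 17.2% lower in KO against het, and 14.7% higher and 17.3% lower in KO against wt.

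**Figure D3:**
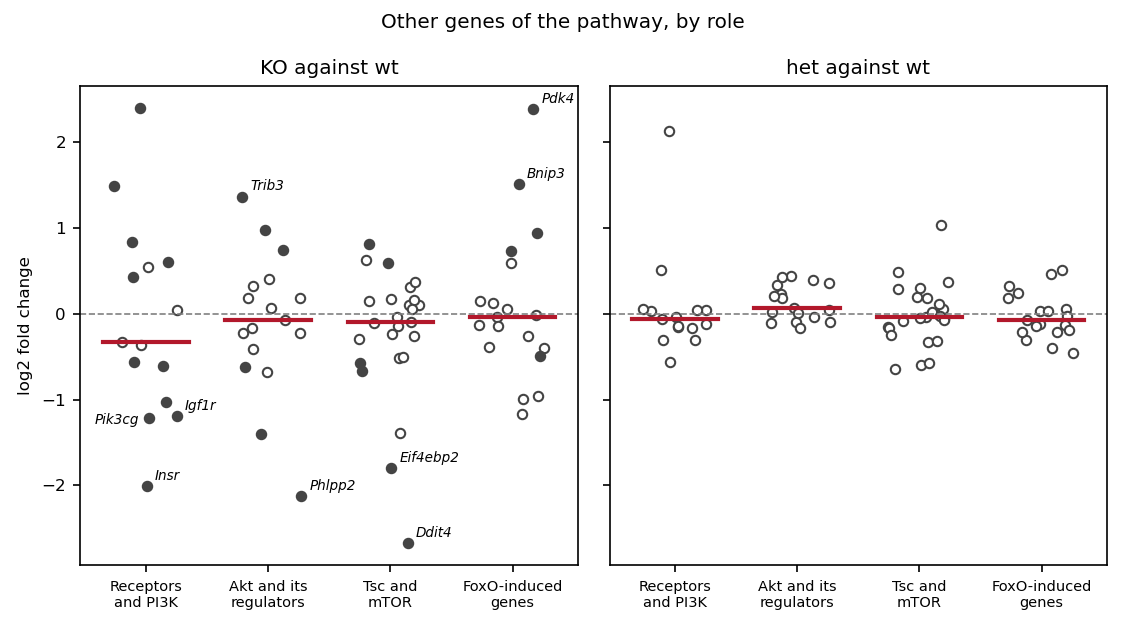
Log2 fold change of the other pathway genes by role (each point a gene, red line the list's median), for KO over wt and for het over wt, with filled points at an adjusted p under 0.05. In KO against wt called genes lie on both sides of 0 in all 4 lists, with Ddit4 (-2.67) lowest, and no point is filled in het against wt.

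The size of the members' changes in KO against wt was recomputed under 14 processing alternatives. Foxo1 and Foxo3 were below 0 and Akt1, Tsc1 and Tsc2 above 0 in all 14, and Pik3r1 lay on both sides. The called status moved with the setting for Foxo1, Akt1, Tsc1 and Tsc2, and Foxo3 and Pik3r1 were called in none.

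**Figure D4:**
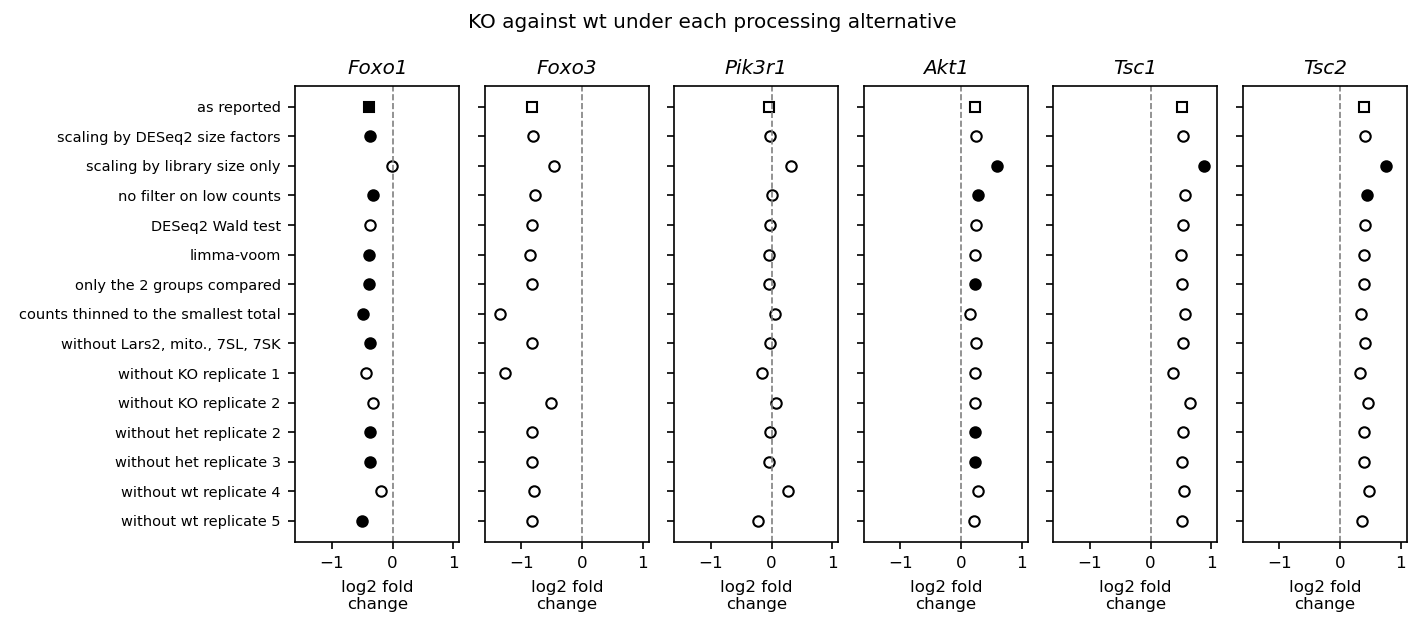
Log2 fold change of the 6 tested members in KO against wt as reported (squares) and under each of 14 alternatives (circles), with filled symbols at an adjusted p under 0.05. Foxo1 ranges from -0.50 to -0.02, and scaling by library size only moves every member towards higher values.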

How the data were processed

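The authors deposited 1 table of expected counts, reads per gene estimated by RSEM that need not be whole, for 6 libraries. CASAVA, cutadapt and RSEM on GRCm38 are named per the submitters' processing notes, without versions. Per the labels' protocols, RNA was amplified with SMART-Seq v4 and libraries were made with Nextera XT, and the labels disagree on single or paired reads. Totals of 1537894 to 6501789 counts set the precision, and the shallower het and wt libraries limit low genes. Genes were named and placed with GENCODE M21 on GRCm38, which matched 97.9% of identifiers.

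Expected counts were rounded and analysed in R 4.3.3 with edgeR 4.0.16: TMM scaling, filterByExpr (minimum count 10), one robust quasi-likelihood fit to the 6 libraries (3 residual degrees of freedom) and two-sided F tests, with Benjamini-Hochberg adjustment over 10952 genes. SE is the log2 fold change divided by the square root of F. CPM use TMM-scaled totals. The procedure was run on counts simulated from the gene means and spread of these data, without the difference in Lars2 share between groups. The changes planted there were larger than those of Foxo1 and Akt1, so that run does not bear on changes of their size. Alternatives used DESeq2 1.42.0, limma 3.58.1, other scalings, no filter, thinning to equal totals, removal of Lars2, mitochondrial, 7SL and 7SK genes, 2-group fits and leaving out each library. The members, the lists and the naming rule (all members, up to 5 called genes per list, the smallest adjusted p for KO against wt first, any called in het against wt, up to 2 called in KO against het alone) were chosen with earlier results of these data known. Protein sequences were not used here, and some genes of these lists are not reported here.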

Additional observations from a re-analysis of the deposited data

How the results depend on the processing

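Genes called in KO against wt, het against wt and KO against het numbered 3509, 19 and 3412. Of these counts only that of het against wt moved by over 1.5 times without a library being left out, to 150 with no filter and 11 with limma-voom. Members called, 1 in KO against wt, became 0 with DESeq2, 4 with no filter (Foxo1, Foxo4, Akt1 and Tsc2), 2 in a fit of those groups alone and 3 with library size only (all higher). In KO against het, 1 became 0 with thinning, 2 with no filter, 2 with those groups alone and 3 with library size only (all higher). Leaving out 1 library gave 2043 to 3815 genes in KO against wt, 2 to 76 in het against wt and 2435 to 3206 in KO against het, with the lowest count in both comparisons with wt reached without wt replicate 4, 76 reached without het replicate 3 and 2435 without KO replicate 2. Members called then numbered 0 to 3, 0 in every case and 0 to 2. A lone library was then assumed to vary like the other groups.

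Pik3r1 in KO against wt turned positive with library size only (0.32), no filter (0.014), thinning (0.049), without KO replicate 2 and without wt replicate 4 (-0.22 to 0.26 on leaving out a library). Library size only also turned Foxo1 (0.13), Tsc1 (0.028) and Map1lc3b (0.081) for KO over het. For het over wt, Foxo1 turned without wt replicate 4 (-0.265 to 0.019 on leaving out a library) and Tsc2 with thinning (-0.019). The cause was not tested beyond the shift of all genes with library size only. Of 252 member values under alternatives, 224 kept direction and side of the threshold. No paired analysis was possible because the groups share only 1 replicate number, between 1 het and 1 KO library. Depth limits Foxo3, Foxo4, Irs1 and Irs2 most.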
